A study of Mus musculus with 12 samples.

Results

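The miRNAs named miR-297, miR-466, miR-467 and miR-669 form a rodent family whose hairpins lie mostly in 1 intron of the imprinted gene Sfmbt2, and their mature forms were followed here in the prefrontal cortex of mice given cocaine, methionine or both. Members were all mature miRNA names that start with mmu-miR-297, mmu-miR-466, mmu-miR-467 or mmu-miR-669 followed by a letter or a hyphen. This rule took 62 of the 1374 mature mouse miRNAs listed across the libraries. They comprised 5 names of miR-297, 29 of miR-466, 9 of miR-467 and 19 of miR-669.

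The study asked how L-methionine (MET), a dietary methyl donor, acts on cocaine-conditioned place preference, a test of how long a mouse stays in a chamber paired with the drug. Adult male C57BL/6 mice were divided into 4 groups. The SS group received saline and saline, the CS group cocaine and saline, the MS group MET and saline, and the MC group MET and cocaine. Per the labels, MET was given under the skin at 1 g/kg (6.6 mmol/kg) in 2 daily injections over 10 days, and the SS and CS groups had none. A figure legend of the study gives another dose of MET. The prefrontal cortex was taken 2 h after the last test in all 4 groups. Each group had 3 libraries, and each library was made from RNA pooled from 2 animals, so that the spread between libraries is a spread between pools. RNA of 18 to 30 nt was sequenced, and total counts ran from 7.77 to 11.1 M per library (M, 1000000). Levels are given as counts per 1000000 counts of the library (CPM).

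Sfmbt2 encodes a Polycomb group protein and is expressed from the paternal allele in extraembryonic tissue of the mouse. Its intron has been filled in rodents by tandem copies of a repeat that folds into miRNA hairpins. A hairpin is processed into a 5p and a 3p arm, usually with a single arm kept, and the kept strand guides silencing of mRNAs that pair with its seed near the 5′ end.

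The 5 miRNAs of a list of neural markers were seen in all libraries, but not at even levels. miR-124-3p, the most abundant, ran from 30002 to 176336 CPM, with 46349, 38721 and 33187 CPM in MC, and was also low in CS replicate 8 (30002 CPM) and MS replicate 4 (35552 CPM). SS replicate 14 had 70274 CPM, against 165273 and 176336 CPM in the other SS libraries, and it also had the highest level of miR-132-3p, 1316 CPM, where the 12 libraries had a mean of 416 ± 305 CPM (SD). In CS replicate 8, MS replicate 4 and MC replicates 17 and 20 miR-9-5p was at 56930, 42667, 53757 and 59924 CPM and miR-138-5p at 25711, 21967, 21923 and 27770 CPM, so that these neural miRNAs did not share the order of miR-124-3p. Liver miR-122-5p reached 2494 CPM in MS replicate 3, against 9.04 to 173 CPM in the other 11 libraries. MC replicate 16 also stood apart. Its 4 vessel wall miRNAs summed to 3787 CPM, with 2776 CPM for the most abundant, miR-126a-3p, and the same list summed to 9742 to 14317 CPM in the other 11 libraries. Its 4 red blood cell miRNAs summed to 464 CPM, against 1517 to 3992 CPM elsewhere, and miR-451a was the most abundant of them. Both sums follow their abundant members: miR-486b-5p of the red blood cell list was highest in MC replicate 16 (77.6 CPM, against 1.29 to 37.5 CPM), and miR-486a-5p and miR-145a-5p lay inside the range of the other libraries. No miRNA of either list was at 0 in this library. The neural list summed to 102872 CPM in MC replicate 16, against 122188 to 269833 CPM elsewhere. There miR-9-5p was at 15389 CPM against 38760 to 61617 CPM, and miR-128-3p at 15953 CPM against 17789 to 28455 CPM. Lowest in this library was also miR-132-3p, at 236 CPM against 254 to 1316 CPM. Inside the range were miR-124-3p, at 46349 CPM, and miR-138-5p, at 24945 CPM. Of the 3 oligodendrocyte miRNAs, miR-219a-5p was at 73.5 CPM against 240 to 716 CPM, miR-338-3p at 31.3 CPM against 115 to 292 CPM and miR-219a-2-3p at 856 CPM against 27.1 to 724 CPM, and their sum of 961 CPM was inside the range of 392 to 1733 CPM. The 3 microglia and leukocyte miRNAs summed to 4.63 CPM, against 12.3 to 195 CPM, and the 4 of choroid plexus and ependyma to 18.8 CPM, against 20.3 to 48.0 CPM. Of the choroid plexus list, miR-449a-5p (7.98 CPM) and miR-449c-5p (0.129 CPM) lay inside the range of the other libraries. The 3 muscle miRNAs summed to 42.9 CPM, inside the range of 27.0 to 87.4 CPM, with miR-1a-3p lowest and miR-206-3p highest in this library. The upper end of the leukocyte range is MC replicate 20, where miR-223-3p was at 166 CPM, against 1.29 to 16.4 CPM in the other 11 libraries.

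In the mouse annotation (GENCODE M21, build GRCm38, the mm10 assembly), 81 hairpin loci carry names of the family. Of these, 71 lie within Sfmbt2 (chr2:10370510-10595253, + strand), all on the strand of the gene. They span chr2:10466663-10518279, a stretch of 51.6 kb, inside intron 11 of its principal transcript (chr2:10461473-10523944), and 0 of the 71 overlap an exon. The intron holds 29 loci of miR-669, 23 of miR-466, 14 of miR-467 and 5 of miR-297. The core is regular: 10 Mir467a loci and Mir467b form an array of 11, and 9 of the 10 distances between neighbouring starts lie between 2.4 and 2.5 kb. The remaining distance is 4.88 kb. Mir467b (chr2:10481248-10481320) lies between Mir467a-2 and Mir467a-3, while Mir467c (chr2:10473931-10474027), Mir467e (chr2:10505721-10505807) and Mir467d (chr2:10507630-10507714) flank it. Mir669b (chr2:10467790-10467886) and Mir669l (chr2:10468971-10469068) lie near the 5′ end of the array, and Mir669c (chr2:10509296-10509404) and Mir669o (chr2:10514300-10514395) lie towards its 3′ end.

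**Figure D1:**
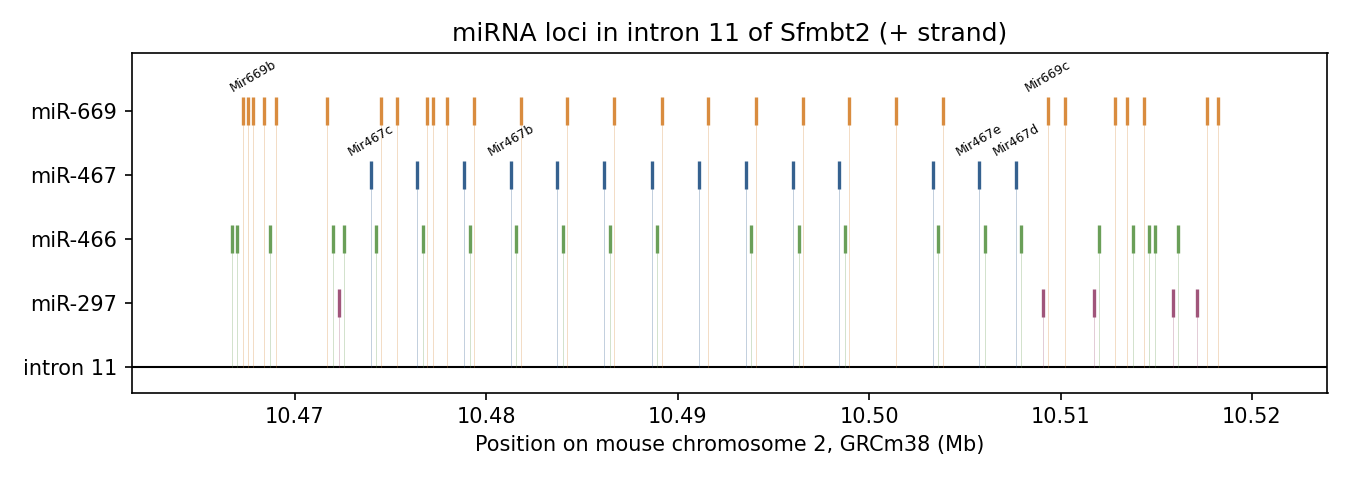
Positions of the 71 miRNA loci in intron 11 of Sfmbt2 (x axis, Mb on mouse chromosome 2, GRCm38), with a line of ticks for each name group. The miR-467 ticks recur at even steps, and the named loci Mir467c, Mir467e and Mir467d flank the array of Mir467a and Mir467b.

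The other 10 loci lie on chromosomes 3, 5, 7, 9, 10, 11 and 13. The 50 members with loci only in Sfmbt2 held 96.5% of the 24031 member counts, the 5 with loci in Sfmbt2 and elsewhere held 2.4%, and the 7 with loci only elsewhere held 1.06%. Of these 7, miR-466i-5p had 207 counts over the 12 libraries and miR-466k had 36. The 16 members with more than 1 locus held 40.2% of the counts. For these, and for near-identical copies that carry different letters, the way reads were divided between names is not given in the sources used here, so the split between such names is uncertain.

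Mature sequences were found in the RefSeq table (GRCm38.p6) for 6 of the 62 members, all with their only locus outside Sfmbt2. They hold few of the counts and are printed because they are the members with a sequence at hand, with the seed (bases 2 to 8) in capitals.
miR-466k (chr3:85467396-85467418, + strand): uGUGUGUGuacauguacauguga
miR-467h (chr9:115381898-115381919, + strand): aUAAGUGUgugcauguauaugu
miR-669n (chr3:115979905-115979924, + strand): aUUUGUGUguggaugugugu
miR-466i-3p (chr13:17747552-17747573, + strand): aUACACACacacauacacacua
miR-466q (chr3:28419988-28420007, + strand): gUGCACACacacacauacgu
miR-467g (chr5:34732872-34732892, - strand): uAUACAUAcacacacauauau
The letters UGUGUG, read on the mature strand only, were in miR-466k, miR-467h and miR-669n, that is in 3 of the 6, against 1.67% of the 1679 mature mouse sequences of the table. The letters ACACAC and ACAUAC were in the other 3 and in 0.655% and 0.417% of the table. No 2 of the 6 seeds were the same. Entries were missing for miR-467a-5p, miR-467b-5p, miR-467e-5p, miR-669b-5p, miR-467d-5p, miR-467c-5p, miR-669l-5p, miR-297a-5p, miR-669c-5p, miR-669o-5p, miR-466d-5p, miR-467a-3p and miR-466b-3p.

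Members were found at low to moderate level in the prefrontal cortex. Of the 62, 22 had counts in all 12 libraries, 32 in 2 to 11 libraries and 8 in 1 library, and 16 had 2 counts or fewer in all. A member at 0 in a library may be present at up to 3 counts, which corresponds to 0.271 to 0.386 CPM. Such limits cover counting error only. The filter of at least 5 counts in at least 3 libraries was passed by 32 members, and the 30 others were not tested. The lowest total among those that passed was 29 counts and the highest among those that did not was 35 counts.

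The summed level of the family was 208, 191 and 209 CPM in SS replicates 12, 13 and 14. It was 294, 233 and 204 CPM in CS replicates 8, 9 and 10, and 217, 238 and 177 CPM in MS replicates 3, 4 and 23. In MC replicates 16, 17 and 20 it was 98.5, 271 and 218 CPM. The 4 groups overlapped, and the lowest value of all was that of MC replicate 16. Means were 203 ± 10.2 CPM in SS, 243 ± 45.7 CPM in CS, 211 ± 31.0 CPM in MS and 196 ± 88.2 CPM in MC (SD, n = 3 each), and the MC mean was 244 ± 37.1 CPM without replicate 16 (SD, n = 2). No test was made on the sum. In tissue, fewer cells that make a miRNA and less of it per cell cannot be told apart.

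**Figure D2:**
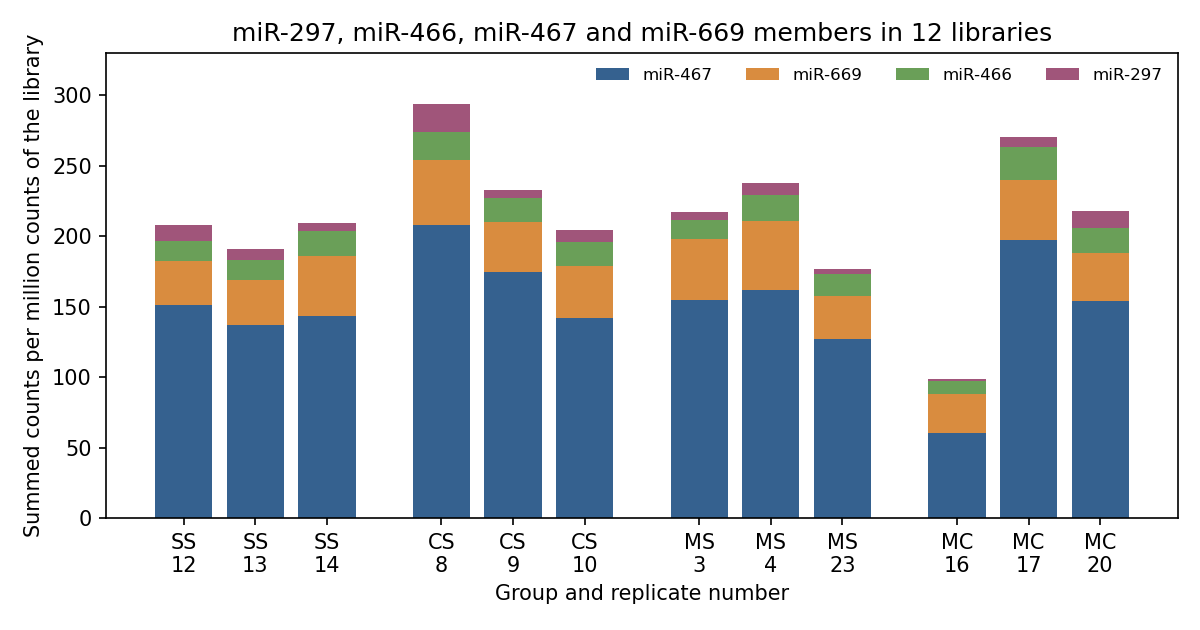
Summed counts of the family per 1000000 counts of the library (y axis) in each of the 12 libraries (x axis, group and replicate number), stacked by name group. MC replicate 16 is at 98.5 CPM and the other 11 libraries lie between 177 and 294 CPM, with miR-467 the largest share in each.

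By CPM, the low level in MC replicate 16 was seen in each name group but not in each member. Its miR-467 members summed to 60.8 CPM, the lowest of the 12 libraries, its miR-466 members to 8.75 CPM against 13.5 to 23.3 CPM, and its miR-297 members to 1.29 CPM against 3.37 to 19.2 CPM. The miR-669 members were nearer to the others, at 27.7 CPM against 30.4 to 49.0 CPM. With TMM factors applied, which scale each library by the bulk of its miRNAs, the miR-669 sum of this library was 41.0 CPM, inside the range of 28.9 to 43.5 CPM of the others, and the miR-466 sum was 13.0 CPM against 13.2 to 19.9 CPM. On this scale the miR-467 sum was 90.0 CPM against 129 to 168 CPM, and the miR-297 sum was 1.91 CPM against 3.41 to 15.2 CPM. The family sum was then 146 CPM against 179 to 232 CPM, still the lowest. Of the 32 members that passed the filter, 14 (43.8%) were lowest by CPM in this library alone, beside 293 of 714 other mature miRNAs (41.0%). The share of the family was thus near that of other miRNAs. Another 3, at 0 counts, shared their lowest value with other libraries, and 15 were above their lowest. Among these 15, picked after their values were seen, miR-669h-5p was highest in MC replicate 16, at 2.19 CPM, and miR-466i-5p was at 3.22 CPM, below MS replicate 23 alone. The miRNAs of the imprinted Dlk1-Dio3 cluster on chromosome 12 summed to 35031 CPM in MC replicate 16, inside the range of 31715 to 42313 CPM of the other 11 libraries. The part that the vessel wall, blood, neural, oligodendrocyte, leukocyte and choroid plexus markers have in the low family level was not tested.

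The family was carried by miR-467. Its 9 members held 70.8% of the counts (151 ± 37.1 CPM, SD, n = 12), followed by miR-669 with 17.7% (37.5 ± 6.83 CPM), miR-466 with 7.76% (16.6 ± 3.71 CPM) and miR-297 with 3.72% (8.00 ± 4.72 CPM). The 10 most abundant members held 86.8% of the counts. The 29 names of miR-466 thus gave less than the 9 of miR-467.

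Most counts were on the 5p arm. The 31 members named 5p held 94.8% of the counts, the 24 named 3p held 3.68% and the 7 without an arm in the name held 1.51%. Both arms were listed for 22 names, and the 5p arm had more counts in 17 of them. Of the 17, miR-466c (34 and 29 counts on 5p and 3p), miR-466h (35 and 28) and miR-669m (7 and 5) were near even. For miR-467a the 5p arm had 8466 counts and the 3p arm 135, with 5p higher in all 12 libraries. For miR-669b the counts were 2041 and 1. The order was the opposite in 5 names. For miR-466d the 3p arm had 284 counts and the 5p arm 93, with 3p higher in all 12 libraries. For miR-669f the 3p arm had 99 counts and the 5p arm 6, and for miR-669a 71 and 3. The other such names were miR-466b, with 76 counts on 3p and 36 on 5p, and miR-466f, with 21 and 2. These 5 names were picked out after their values were seen.

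miR-467a-5p, which may come from any of its 10 loci, was the most abundant member and ranked 199 of 1374 mature miRNAs. Its level was 59.4, 57.1 and 60.0 CPM in SS, 91.9, 66.7 and 82.4 CPM in CS, 62.1, 106 and 76.2 CPM in MS, and 23.9, 125 and 91.0 CPM in MC, in the order of replicates used above. The 3 SS libraries were close to each other and below every CS and MS library, whereas the MC libraries spanned the lowest and the highest value of the 12. With the normalisation factors applied, the SS and CS libraries overlapped, as did SS and MS.

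miR-467b-5p, from the single locus between the Mir467a loci, showed a different pattern. Its level was 45.1, 31.1 and 37.7 CPM in SS, 63.1, 62.3 and 6.72 CPM in CS, 42.3, 10.4 and 9.05 CPM in MS, and 5.66, 15.0 and 12.5 CPM in MC. At the largest gap, 2.06-fold, the 12 libraries were split into 6 between 5.66 and 15.0 CPM and 6 between 31.1 and 63.1 CPM. This split, and the share of miR-467b-5p given below, were chosen after the values were seen. All SS libraries were in the high set and all MC libraries in the low set, while CS replicate 10 and MS replicate 3 went against the others of their groups. As a share of the summed counts of miR-467a-5p and miR-467b-5p, miR-467b-5p made up 43.1%, 35.3% and 38.6% in SS, 40.7%, 48.3% and 7.54% in CS, 40.5%, 8.96% and 10.6% in MS, and 19.1%, 10.8% and 12.0% in MC. The summed level of both, 104 ± 31.7 CPM (SD, n = 12), did not fall into the same sets: CS replicate 10 had 89.1 CPM and SS replicate 13 had 88.1 CPM. Whether reads moved between the names was not tested.

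miR-467e-5p, from the locus downstream of the Mir467a loci, had 18.7 CPM in its lowest library and 34.2 CPM in its highest, a ratio of 1.83. Group means were 27.4 ± 5.03 CPM in SS, 27.6 ± 6.24 CPM in CS, 24.8 ± 2.13 CPM in MS and 27.7 ± 7.86 CPM in MC (SD, n = 3 each). The MC mean was 32.2 ± 1.10 CPM without replicate 16 (SD, n = 2). With all 3 MC libraries the group means lay between 24.8 and 27.7 CPM, and the groups overlapped by CPM. With TMM factors applied, all MC libraries of miR-467e-5p were above all MS libraries. miR-669b-5p, the leading member of the 5′ end of the array, had 18.0 ± 2.25, 21.3 ± 5.47, 17.9 ± 0.625 and 14.9 ± 6.64 CPM in SS, CS, MS and MC, and the MC mean was 18.7 ± 0.522 CPM without replicate 16 (n = 2).

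The next members were miR-467d-5p (mean 11.5 CPM over the 12 libraries), miR-467c-5p (7.66 CPM), miR-669l-5p (5.19 CPM), miR-297a-5p (4.80 CPM) and miR-669o-5p (3.45 CPM). Over the libraries miR-467d-5p ran from 6.95 to 15.8 CPM, miR-467c-5p from 4.76 to 10.5 CPM, and miR-297a-5p from 1.03 to 9.21 CPM, each lowest in MC replicate 16. miR-669l-5p ran from 4.03 to 7.49 CPM and miR-669o-5p from 2.43 to 4.51 CPM. These last 2 were not lowest in MC replicate 16, where miR-669l-5p had 7.21 CPM.

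miR-669c-5p was among the 10 most abundant members but varied from library to library. Its counts were 26, 7 and 12 in SS, 29, 1 and 48 in CS, 106, 150 and 3 in MS, and 25, 51 and 3 in MC. Low libraries with 3 counts or fewer occurred in CS, MS and MC. In all 4 groups the means of 1.65 ± 1.32, 3.13 ± 2.89, 8.31 ± 7.44 and 3.30 ± 3.06 CPM (SS, CS, MS, MC; SD, n = 3 each) have SDs close to the means themselves. miR-297c-5p, chosen after its values were seen, was as uneven, with 48, 31 and 3 counts in SS, 81, 2 and 26 in CS, 2, 41 and 0 in MS, and 1, 4 and 66 in MC. High and low libraries of miR-297c-5p were found in each group.

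The biological coefficient of variation, the spread between libraries of a group beyond counting error, was 39.7% for the median member and 37.9% for the median of 714 other mature miRNAs tested. The members were not alike in it. It was 25.9% for miR-669b-5p, 27.6% for miR-467c-5p and 30.3% for miR-467e-5p, but 60.9% for miR-467b-5p, 105% for miR-669c-5p and 128% for miR-297c-5p. It was above 100% for 7 of the 32 members tested (21.9%) and for 14 of the 714 others (1.96%). The members and the others were not matched for level, and the difference in these shares was not tested. The 5 such members besides miR-669c-5p and miR-297c-5p were miR-669o-3p, miR-466c-3p, miR-466b-5p, miR-466p-3p and miR-669a-3p, all with a mean under 1 CPM.

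Among them, miR-669a-3p and miR-669o-3p, a pair picked after the values were seen, hardly met in the same library. miR-669a-3p had 3, 0 and 7 counts in SS, 4, 1 and 5 in CS, 0, 16 and 0 in MS, and 4, 15 and 16 in MC. miR-669o-3p had 0, 11 and 0 counts in SS, 0, 4 and 0 in CS, 6, 0 and 8 in MS, and 0, 0 and 0 in MC. The only library with both was CS replicate 9. Their sum was 3 to 16 counts per library. miR-669a-3p may come from any of 12 loci and miR-669o-3p from 1. Whether reads moved between these 2 names was not tested.

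**Figure D3:**
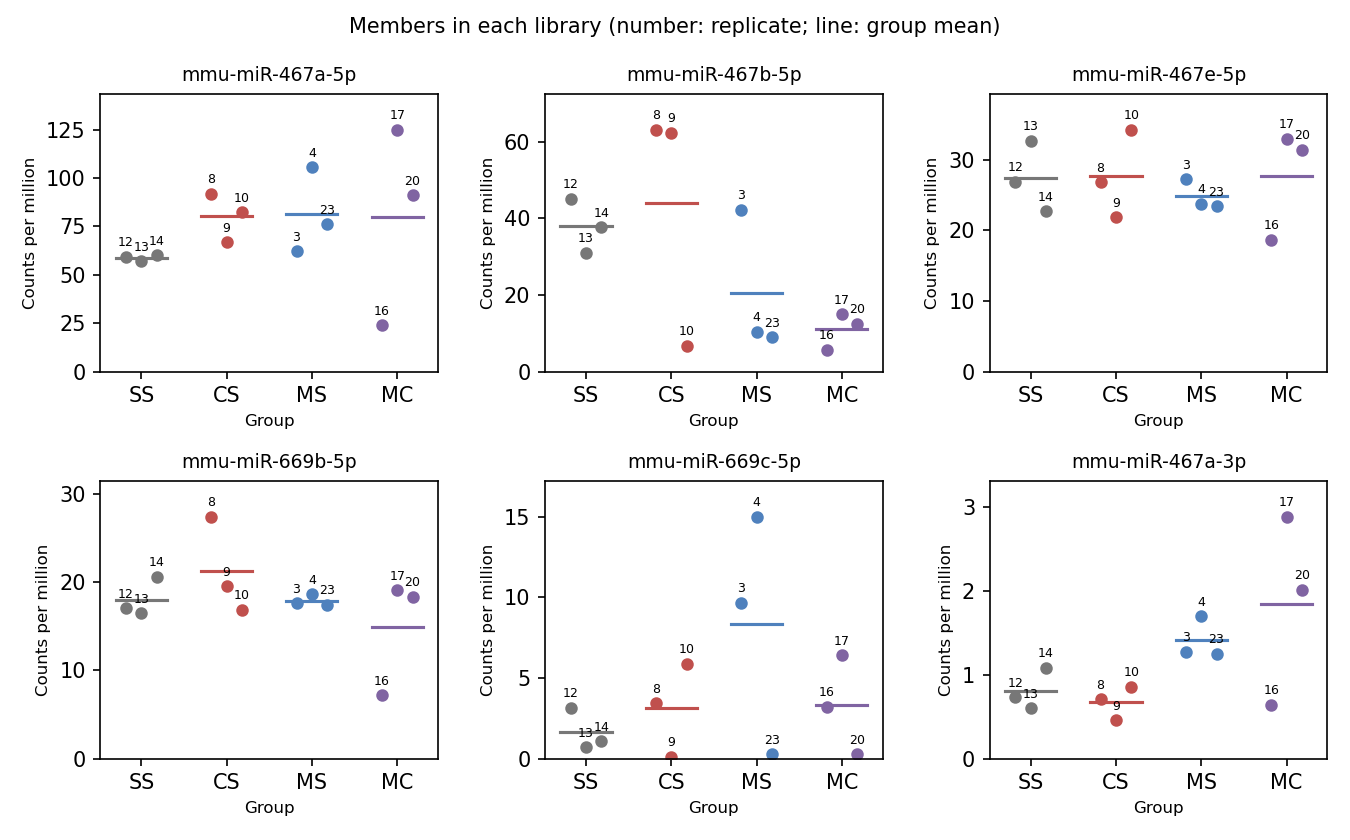
Counts per 1000000 counts of the library (y axis) of 6 members in each library, by group (x axis), with the replicate number at each point and a line at the group mean (n = 3). The 4 groups overlap for miR-467e-5p and miR-669b-5p on this scale. Split at its largest gap, miR-467b-5p has a high and a low set that cross CS and MS. MC replicate 16 is the lowest point of the 4 most abundant members.

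To see whether the treatments changed any member, the 780 mature and predicted miRNAs that passed the filter were tested with edgeR's quasi-likelihood test over all 12 libraries. No member passed an adjusted p of 0.05 in any of the 6 tests. For cocaine (CS vs. SS), 0 of 32 members and 0% of all 780 miRNAs were called. The count at an unadjusted p under 0.05 was 0 of 32 members and 22 of 780 miRNAs, and DESeq2 called 0 members and 0 miRNAs. The median log2 fold change was −0.12 over the members and 0.03 over all miRNAs, with 11 members above 0 and 21 below. The values are scaled by TMM factors. Without the factors the medians were 0.17 and 0.31, with 23 members above 0 and 9 below, so the direction of the family turned with the scaling, while its median was below that of all miRNAs on both scales. The 2 most abundant members had log2 fold changes of 0.19 ± 0.35 (SE) for miR-467a-5p and −0.11 ± 0.71 (SE) for miR-467b-5p, and the latter was 0.22 without the factors and 0.35 without CS replicate 10. The smallest unadjusted p, 0.163 (edgeR; adjusted p = 0.994), belonged to miR-466k of chromosome 3, with 1, 1 and 4 counts in SS and 7, 5 and 2 in CS, a log2 fold change of 1.13 ± 0.76 (SE). At such counts the groups overlapped, and over all alternatives the log2 fold change of miR-466k ran from 0.85 to 1.83. By CPM, 1 of 32 members (miR-467a-5p) had all CS libraries above all SS libraries, where 13.2% of all miRNAs did not overlap, and with TMM factors applied 0 of 32 members did so, beside 10.4% of all miRNAs.

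For MET (MS vs. SS), again 0 of 32 members were called by edgeR, as were 0% of all 780 miRNAs. At an unadjusted p under 0.05 there were 0 members, although 75 of 780 miRNAs were at this level, and DESeq2 called 19 miRNAs, 0 of them members. The median log2 fold change was −0.30 over the members and −0.03 over all miRNAs, with 12 members above 0 and 20 below, and without TMM factors the medians were −0.05 and 0.21, with 15 members above 0 and 17 below. miR-467a-5p had a log2 fold change of 0.20 ± 0.35 (SE) and miR-467b-5p of −1.09 ± 0.72 (SE; edgeR adjusted p = 0.685), and MS replicate 3 of miR-467b-5p lay within the SS range. Without that library the value of miR-467b-5p was −2.23 (adjusted p = 0.481), and over all alternatives it ran from −2.23 to −0.73, with adjusted p from 0.398 to 0.942. miR-466d-5p, the minor arm of its hairpin, had the smallest unadjusted p, 0.0648 (edgeR; adjusted p = 0.551). It had 6, 11 and 17 counts in SS and 3, 2 and 8 in MS, a log2 fold change of −1.62 ± 0.79 (SE). Over all alternatives the value of miR-466d-5p ran from −2.46 to −1.25, with adjusted p (edgeR or DESeq2) from 0.200 to 0.841. On the CPM scale its highest MS library lay above its lowest SS library. By CPM, 3 of 32 members did not overlap between the groups, all higher in MS (miR-467a-5p, miR-467a-3p and miR-467d-5p), where 22.8% of all miRNAs did not overlap. With TMM factors applied there were 5, beside 23.5% of all miRNAs, and only miR-467a-3p was among them on both scales; the others, miR-297a-5p, miR-466d-5p, miR-466g and miR-669b-5p, were lower in MS.

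MET given with cocaine was set against cocaine alone (MC vs. CS), the comparison at the centre of the study. edgeR called 0 of 32 members and 0% of all 780 miRNAs, and DESeq2 called 0 of either. At an unadjusted p under 0.05 there were 2 members by edgeR and 3 by DESeq2, beside 58 of 780 miRNAs by edgeR and 70 by DESeq2. The median log2 fold change was −0.03 over the members and 0.08 over all miRNAs, and without TMM factors −0.19 and −0.01, with 14 members above 0 and 18 below either way.

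The first of the 2, miR-467a-3p, which may come from any of 10 loci, had 6, 4 and 7 counts in CS and 5, 23 and 22 in MC. By CPM, MC replicate 16 was within the CS range and the other 2 MC libraries were above it. With TMM factors applied, all MC libraries of miR-467a-3p were above all CS libraries. The log2 fold change was 1.45 ± 0.44 (SE), with an unadjusted p of 0.00725 and an adjusted p of 0.577 by edgeR, and without MC replicate 16 it was 1.73 (adjusted p = 0.280). Over all alternatives it ran from 1.11 to 1.78, with adjusted p from 0.280 to 0.955. In SS the counts were 6, 6 and 12 and in MS 14, 17 and 13, and in the test of any difference among the 4 groups this member had the smallest p of the family (0.0331; adjusted p = 0.593 by edgeR). miR-467a-5p gave −0.03 ± 0.35 (SE) for MC vs. CS, and 0.32 without MC replicate 16.

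The other was miR-467b-5p, with a log2 fold change of −1.87 ± 0.74 (SE), an unadjusted p of 0.0269 and an adjusted p of 0.577 by edgeR. The difference came from CS replicates 8 and 9, at 63.1 and 62.3 CPM, while CS replicate 10, at 6.72 CPM, lay among the MC libraries. The libraries were clustered by miRNA precursor families, of whose 204 rows 0 named a family of the members. This gave 3 sets that cross the groups. SS replicate 12 and CS replicates 8 and 9 were in one, and CS replicate 10 and MC replicates 16 and 17 in another. The other 6 libraries formed the last. With these sets as a covariate, the log2 fold change of miR-467b-5p was −0.31 (adjusted p = 0.971), and that of miR-467a-3p was 1.14 (adjusted p = 0.955). CS replicates 8 and 9 share no set with an MC library. Within a set, MC and CS therefore meet only through CS replicate 10, and why the value of miR-467b-5p moved was not tested. Without MC replicate 16 the value of miR-467b-5p was −1.70 (adjusted p = 0.639), and over all alternatives it ran from −2.35 to −0.31, with adjusted p from 0.323 to 0.971. The labels name no batch, and the part of the sets in the values was not tested. By CPM, 1 of 32 members did not overlap (miR-669o-5p, lower in MC), where 5% of all miRNAs did not overlap. With TMM factors applied there were 4 (miR-466p-3p, miR-467a-3p and miR-669a-3p higher, miR-669b-5p lower), beside 8.85% of all miRNAs. The counts of members without overlap, in each comparison and on both scales, were made after the data were seen.

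For cocaine on a MET background (MC vs. MS), 0 of 32 members and 0% of all 780 miRNAs were called by edgeR. DESeq2 called 0. At an unadjusted p under 0.05 there were 0 members by either tool, beside 65 of 780 miRNAs by edgeR and 78 by DESeq2. The median log2 fold change was 0.15 over the members and 0.05 over all miRNAs, with 20 members above 0 and 12 below, and without TMM factors 0.07 and −0.02, with 18 above 0 and 14 below. miR-467a-5p had a log2 fold change of −0.05 ± 0.35 (SE), or 0.28 without MC replicate 16, and miR-467b-5p of −0.89 ± 0.72 (SE), or 0.25 without MS replicate 3 and −0.77 without MC replicate 16. The smallest unadjusted p, 0.0799 (edgeR; adjusted p = 0.577), was that of miR-466b-3p, which may come from any of 8 loci, with 6, 9 and 10 counts in MS and 0, 2 and 3 in MC. Its log2 fold change was −2.04 ± 1.06 (SE), and −1.69 without MC replicate 16. Over all alternatives the value of miR-466b-3p ran from −2.41 to −0.92. All MC libraries were below all MS libraries, which makes it the 1 member of 32 whose CPM did not overlap (8.33% of all miRNAs), but each MC count is at or under the limit of 3. With TMM factors applied there were 3 such members, miR-466b-3p, miR-467d-5p and, higher in MC, miR-467e-5p, beside 8.59% of all miRNAs. In SS the counts of miR-466b-3p were 4, 10 and 18 and in CS 13, 1 and 0.

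No interaction was detected. This test sets MC vs. MS against CS vs. SS. edgeR called 0 of 32 members and 0% of all 780 miRNAs, 0 members and 34 miRNAs had an unadjusted p under 0.05 by edgeR, and DESeq2 called 0. The estimates were wide: −0.24 ± 0.50 (SE) for miR-467a-5p, −0.78 ± 1.01 (SE) for miR-467b-5p and −1.97 ± 1.10 (SE; edgeR adjusted p = 0.804) for miR-466k, the member with the smallest p. Without MC replicate 16 the values of miR-467a-5p and miR-466k were 0.04 and −1.66, and without MS replicate 3 that of miR-467b-5p was 0.36. Over all alternatives the value of miR-466k ran from −2.67 to −1.66. The median was 0.20 over the members and 0.06 over all miRNAs, with 20 members above 0 and 12 below, and without TMM factors −0.12 and −0.27, with 13 above 0 and 19 below. In the test of any difference among the 4 groups edgeR called 0 of 32 members and 0% of all miRNAs, 1 member and 59 miRNAs had an unadjusted p under 0.05 by edgeR, and DESeq2 called 12 miRNAs, 0 of them members.

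The Dlk1-Dio3 cluster, another large imprinted array of miRNAs, served for comparison. Of its 107 names listed, 96 passed the filter and edgeR called 0 in all 6 tests, with 1, 9, 5, 6 and 4 at an unadjusted p under 0.05 in CS vs. SS, MS vs. SS, MC vs. CS, MC vs. MS and the interaction. The family held 0.0340 ± 0.00781% of miRNA counts (SD, n = 12). Its summed level ran from 98.5 to 294 CPM over the libraries, and that of the Dlk1-Dio3 cluster from 31715 to 42313 CPM.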

How the data were processed

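Small RNA of 18 to 30 nt was sequenced by the authors as 50 bp single-end reads on the BGISEQ-500 platform. Per their methods, reads were filtered, mapped with AASRA and, after miRNA, rRNA and tRNA matches, aligned to piRBase with Bowtie; the submitters' processing notes name Bowtie and build mm10. The deposited files give counts per small RNA, and TPM, which the authors computed as the count scaled to a fixed library total with no length term. Counts were analysed here.

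Mature and predicted miRNAs that reached 5 counts in 3 or more libraries were fitted in edgeR 4.0.16 (R 4.3.3; quasi-likelihood, 1 coefficient per group, all 12 libraries, TMM factors, library size set to the total count). P-values were adjusted by Benjamini-Hochberg over all miRNAs tested and called at 0.05. DESeq2 1.42.0 was an alternative. Members described singly were the 10 most abundant, any called, and the member of smallest p in each test; others are said to be chosen after their values were seen. Printed fold changes are those of the 2 most abundant members and of members of smallest p or unadjusted p under 0.05, a choice made with the data in view, as were the counts of groups that do not overlap, the limit of 100% for the coefficient of variation the MC means without replicate 16 and the sums of that library with TMM factors. The members and lists were chosen with earlier results of these data known. Libraries of a group differed beyond sampling noise. Summaries used Python 3.11.15 and pandas 2.3.3.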

Additional observations from a re-analysis of the deposited data

How the results depend on the processing

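The count of 0 members called held in all 6 tests under each alternative run for the test, 117 counts in all: DESeq2, no TMM factors, TMM factors over all small RNAs, a minimum of 10 counts, no filter, only the 6 libraries of a comparison, an added fold limit, library sets as a covariate, and each library left out. Over all miRNAs, MS vs. SS gave 0 calls by edgeR, 19 by DESeq2, 3 with only the 6 libraries and 7 without MC replicate 16, and any difference among the 4 groups gave 0, 12 by DESeq2 and 3 without MC replicate 16. The cause was not tested.

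Scaled to miRNA counts in place of all counts, the family level had means of 309, 385, 336 and 330 CPM for SS, CS, MS and MC, since fewer counts are in the denominator. Without miR-467a-5p the means were 144, 163, 129 and 116 CPM for SS, CS, MS and MC, since the largest member is left out. Without TMM factors the median log2 fold change of all miRNAs was 0.31 in place of 0.03 in CS vs. SS, 0.21 in place of −0.03 in MS vs. SS and −0.27 in place of 0.06 in the interaction. Signs turned for these printed fold changes, none of them called: miR-467b-5p in CS vs. SS (0.22 without TMM factors; −0.58 to 0.35 with a library left out), in MC vs. MS (−1.24 to 0.25) and in the interaction (0.41 with library sets; −1.25 to 0.36), and miR-467a-5p in MC vs. CS (−0.41 to 0.32), MC vs. MS (0.00352 by DESeq2; −0.42 to 0.28) and the interaction (−0.61 to 0.041). Of all 70 fold changes of the 14 members that the rule names, 27 turned sign under at least 1 alternative, in 71 of 1287 refitted values, and the smallest adjusted p over these alternatives was 0.200.

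No paired analysis was run, since the animals were divided into 4 groups and no pairing between groups is given. Summing members by seed was not run, since sequences were at hand for 6 of 62 members. Most members have few counts: 16 of 62 had 2 or fewer in all, and 30 were tested only where no filter was set, with 0 called. The median standard error of a member's log2 fold change was 0.57 in CS vs. SS and 0.80 in the interaction. The p-values measure spread between pools of 2 animals, not between animals.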
